A study of Mus musculus with 49 samples.

Results

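The genes described here encode 5 laminin chains (Lama3, Lama5, Lamb1, Lamb3 and Lamc1) and 4 integrin subunits (Itga2, Itga6, Itgb1 and Itgb4). They were chosen by symbol, and these 9 genes correspond to 9 of the 46078 Ensembl identifiers in a table of 3′ UMI counts. Lama3 is ENSMUSG00000024421, Lama5 is ENSMUSG00000015647, Lamb1 is ENSMUSG00000002900, Lamb3 is ENSMUSG00000026639 and Lamc1 is ENSMUSG00000026478. Itga2 is ENSMUSG00000015533, Itga6 is ENSMUSG00000027111, Itgb1 is ENSMUSG00000025809 and Itgb4 is ENSMUSG00000020758.

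Laminins are secreted heterotrimers of an α, a β and a γ chain, and they form the polymer on which basement membranes are built. Lamc1 encodes the γ chain found in most laminins, whereas the chains of Lama3 and Lamb3 occur together in the laminin of stratified and glandular epithelia. Lama5 encodes the α chain of most adult epithelial basement membranes, and Lamb1 is a β chain that is abundant in developing tissue. Integrins are receptors of 1 α and 1 β subunit that carry the signal and the load from the matrix to the cytoskeleton. Itgb1 pairs with many α subunits, among them the laminin receptor subunits encoded by Itga3 and Itga6 and the collagen receptor subunit encoded by Itga2. Itgb4 pairs only with the product of Itga6, and this receptor holds epithelial cells to laminin at hemidesmosomes. In healthy liver the hepatocytes face a sparse matrix without a continuous basement membrane, whereas the bile ducts and the intestinal epithelium rest on one.

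The study followed mouse hepatocytes that lose their identity in culture (dedifferentiated hepatocytes, dediHeps) and then form organoids with intestinal features. The 49 libraries fell into 16 conditions, each with 2 to 5 libraries, and all came from wild-type (WT) C57BL/6J mice. Hepatocytes were released with collagenase from the livers of 10-week-old male mice and were taken as they were (freshly isolated hepatocytes, FH, n = 3) or after 3 h, 1, 2, 4, 7 and 14 days as a monolayer on type I collagen with EGF (n = 3 each). A further pair of conditions at day 7 held cells given 0.3 µM verteporfin, an inhibitor of the transcriptional co-activator Yap (n = 2), or DMSO (n = 2). dediHeps (n = 5) were passaged monolayers, dediHep aggregates (n = 3) were the same cells in non-adherent wells, and dediHep-derived spherical organoids (SOs, n = 3) grew in Matrigel, which is itself a laminin-rich basement membrane extract. dediHep-derived budding organoids (BOs, n = 3) carried in addition a retrovirus for Cdx2, a transcription factor of the intestine. Fetal intestinal progenitor cell (FIPC)-derived SOs (n = 3) came from E13.5 fetal intestine. Intestinal stem cell (ISC)-derived BOs (n = 4) came from the small intestine of 10-week-old adult male mice, and both were grown in Matrigel. Chemically induced liver progenitors (CLiPs, n = 3) were hepatocytes cultured with Y-27632, A-83-01 and CHIR99021. By the names of their samples, the aggregates came from the cultures of dediHep replicates 1, 2 and 4, and the SOs from those of dediHep replicates 1, 3 and 2.

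Total counts per library ran from 861047 to 3872936, with a median of 1976760. Levels are given as CPM (counts relative to the size of the library) with library sizes scaled by the trimmed mean of M values (TMM) over all 49 libraries, and 3 counts correspond to 0.671 to 3.91 CPM depending on the library. Because a transcript is counted at its 3′ end, a level does not grow with transcript length. The FH and 3 h libraries had TMM factors of 0.633 to 0.735 and 0.640 to 0.647. Scaling by library totals in place of TMM raised the median log2 fold change of all genes by 0.65 to 0.89 in every comparison with FH except that of 3 h, so changes from FH are relative to the median gene. Summed hepatocyte markers were 16136 to 21468 CPM in FH and 718 to 4087 CPM in dediHeps. The sum of 6 endothelial markers was 88.7 to 108 CPM in FH, at most 9.16 CPM at 14 days and at most 0.965 CPM in dediHeps, where Cdh5, Kdr, Stab2 and Tek were at 0. The sum of 8 stellate and fibroblast markers was 67.8 to 178 CPM in FH, 41.2 to 207 CPM at 14 days and at most 1.64 CPM in dediHeps. Fewer cells of a type and less RNA per cell cannot be told apart in such bulk samples.

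In the GENCODE M21 annotation of GRCm38, the laminin genes lie at chr18:12333819-12583013 (Lama3, plus strand), chr2:180176373-180225859 (Lama5, minus strand), chr12:31265234-31329644 (Lamb1, plus strand), chr1:193207699-193343878 (Lamb3, plus strand) and chr1:153218922-153332786 (Lamc1, minus strand). The integrin genes lie at chr13:114833081-114932100 (Itga2, minus strand), chr2:71745616-71858416 (Itga6, plus strand), chr8:128685654-128733200 (Itgb1, plus strand) and chr11:115974709-116008412 (Itgb4, plus strand). No other annotated gene covers the 3′ end of any of them, which is the end the counts come from.

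RefSeq promoters (GRCm38.p6, 250 bases before the start of transcription) were found for 5 of the 9 genes: Lamb3 (with more than 1 entry), Lama5, Itgb1, Lamb1 and Itga2. The AP-1 motif TGANTCA, searched on both strands, was in none of them and in 6.75% of 32851 promoters. The motif GGAATG of TEAD factors, the DNA-binding partners of Yap, was in 12.6% of all promoters and in those of Itgb1 and of the second Lamb3 entry. The Itgb1 match is shown because Itgb1 was the member that passed the test at every time of the monolayer culture. The motif, in capitals, begins 7 bases before the start:

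Itgb1, chr8:128685637-128685653, plus strand: gcggcgcggaGGAATGc

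A match says only that the letters are there. No data on binding were analysed here.

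The first question was how the genes move as hepatocytes spread on collagen. Within 1 day of plating, Itga6, Itgb1 and Lamc1 rose while Lama3 and Lamb1 fell, and in the second week Lama5, Lamb1 and Itga2 stood well above FH. Of the 9 genes, 7 had enough counts to be tested, and a gene passed the test at an adjusted p (edgeR quasi-likelihood test, Benjamini-Hochberg over all genes tested) under 0.1. At 3 h, 1 of 7 passed, higher, against 7.58% of all tested genes higher and 10.9% lower. At 1 day 3 were higher and 2 lower (all genes, 17.7% and 22.2%), and at 2 days again 3 and 2 (21.2% and 23.1%). At 4 days 5 were higher and 1 lower (23.5% and 23.5%), as at 7 days (25.6% and 23.5%) and at 14 days (28.0% and 27.6%). All 6 times share the same FH libraries. Itga2 and Lama5, with 0 and 2 counts in FH, had enough counts for the test only through the later times. Against FH these genes could only be called higher, and both are among the 5 higher at 4, 7 and 14 days.

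Lama3, the α chain of epithelial laminin, was counted in all 3 FH libraries at 7.61, 5.22 and 7.98 CPM and at 3 h at 12.0, 15.2 and 12.8 CPM. From day 1 to day 14 the 15 libraries gave 0 to 2.29 CPM, all below every FH library. Lama3 fell by 4.35 on the log2 scale at 1 day (SE 0.93, adjusted p = 0.00094), and the fitted change was −5.32 at 7 days (SE 0.99, adjusted p = 0.000148) and −3.50 at 14 days (adjusted p = 0.00317). In summed counts FH was 22.2-fold above day 1 (95% counting interval 5.35 to 196). The 3 h level did not differ from FH by the test (log2 fold change 0.94, SE 0.68, adjusted p = 0.381), although the ranges of the libraries do not overlap.

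Lama5, the α chain common in adult epithelia, gave 1.09, 1.30 and 0 CPM in FH and at most 1.45 CPM in any library up to day 2. It then reached 1.23, 6.10 and 5.35 CPM at 4 days, 5.60, 9.57 and 12.2 CPM at 7 days and 20.7, 6.67 and 14.9 CPM at 14 days. All libraries of days 7 and 14 lie above all FH libraries. Lama5 rose by 3.35 on the log2 scale at 7 days (SE 0.99, adjusted p = 0.00886) and by 3.98 at 14 days (SE 0.98, adjusted p = 0.00189). The ratio of summed counts at 14 days was 20.5 (interval 5.49 to 172), since FH held 2 counts in all. The call at 4 days (2.26, SE 1.06, adjusted p = 0.0964) was lost without any of 10 of the libraries in the fit.

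The β chains parted. Lamb1 gave 4.35, 2.61 and 5.98 CPM in FH, at most 2.45 CPM in any library from 3 h to 4 days, 13.8, 12.4 and 5.61 CPM at 7 days and 69.5, 46.1 and 24.0 CPM at 14 days. So Lamb1 was under its starting level first and above it in every library at 14 days. It fell by 3.68 on the log2 scale at 1 day (SE 1.09, adjusted p = 0.0125) and rose by 3.24 at 14 days (SE 0.73, adjusted p = 0.000922). The fall at 2 days (−2.07, adjusted p = 0.0778) did not pass without FH replicate 1 (0.133) or FH replicate 3 (0.226), nor without replicate 2 or 3 of that day or replicate 2 of day 14. Lamb3, the β chain of epithelial laminin, had too few counts for the test. Its level was 5.44, 3.91 and 5.98 CPM in FH and 4.88, 1.21 and 0 CPM at 14 days, and the ranges overlap.

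As a share of the UMI counts of Lamb3 and Lamb1 together, which leaves out the other β chain Lamb2, Lamb3 made up 50 to 60% in FH, though on only 5 to 12 counts a library, 18.8 to 30.2% at 7 days and 0 to 6.57% at 14 days (21 to 198 counts). The ranges of FH and of day 14 do not overlap. Of the counts of Lama3 and Lama5 together, Lama3 had 80 to 100% in FH, on only 5 to 8 counts a library, and 0 to 13.3% at 14 days (11 to 56 counts).

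Lamc1, the common γ chain, gave 20.7, 14.3 and 6.98 CPM in FH and 52.9, 47.3 and 32.3 CPM at 1 day, with no overlap. It rose by 1.49 on the log2 scale at 1 day (SE 0.47, adjusted p = 0.0173) and by 1.44 at 7 days (SE 0.47, adjusted p = 0.0161). By 14 days it was back at 15.4, 24.3 and 10.3 CPM, within the range of FH or just above it (log2 fold change 0.13, SE 0.48, adjusted p = 0.849). The call at 4 days (1.13, adjusted p = 0.0588) was lost without FH replicate 2, FH replicate 3 or the second library of that day.

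Among the integrin subunits Itga6, which joins the product of Itgb1 or Itgb4 to bind laminin, gave 6.53, 1.30 and 0 CPM in FH, 7.18, 5.08 and 12.8 CPM at 3 h and 24.9, 25.9 and 33.9 CPM at 1 day. From 2 to 14 days every library lay between 34.7 and 74.6 CPM, so most of the difference from FH was there by day 2. Itga6 rose by 3.23 on the log2 scale at 1 day (SE 0.59, adjusted p = 0.0002) and by 4.18 at 14 days (SE 0.59, adjusted p = 3.99e-06). At 3 h the log2 fold change was 1.67 (SE 0.68, adjusted p = 0.109).

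Itgb1, the shared β subunit, was the most counted of the 9 genes in each of these conditions and the member that passed at all 6 times. It gave 162, 155 and 106 CPM in FH, 250, 298 and 267 CPM at 3 h, 469, 459 and 336 CPM at 7 days and 503, 427 and 362 CPM at 14 days. All 18 plated libraries lie above all FH libraries, the lowest at 194 CPM. The log2 fold change was 0.95 at 3 h (SE 0.27, adjusted p = 0.0271) and 1.47 at 14 days (SE 0.27, adjusted p = 0.000137). The calls at 3 h and 1 day were lost without FH replicate 3 (0.77, adjusted p = 0.139, at 3 h), and that at 1 day (0.70, adjusted p = 0.0527) also without replicate 1 or 2 of that day.

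Itga2, the α subunit of a collagen and laminin receptor, had 0 counts in all 3 FH libraries, which allows up to 2.99 to 3.91 CPM a library. It gave 8.58, 3.49 and 1.61 CPM at 4 days, 6.72, 11.5 and 1.98 CPM at 7 days and 10.1, 10.3 and 6.87 CPM at 14 days. Itga2 was called higher at all 3 times, with an adjusted p of 0.0102, 0.004 and 0.00154, the only call open to a gene at 0 in FH. Since FH was at 0, the fold is a bound, at least 4.34-fold higher at 4 days, 5.52-fold at 7 days and 8.64-fold at 14 days. Itgb4, the hemidesmosome subunit, was too low for the test, with 0, 1.30 and 0.997 CPM in FH, at most 0.508 CPM in any library from 3 h to 4 days and 4.51, 0.607 and 2.29 CPM at 14 days. Itgb4 made up at most 0.888% of the counts of Itgb4 and Itgb1 at 14 days.

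**Figure D1:**
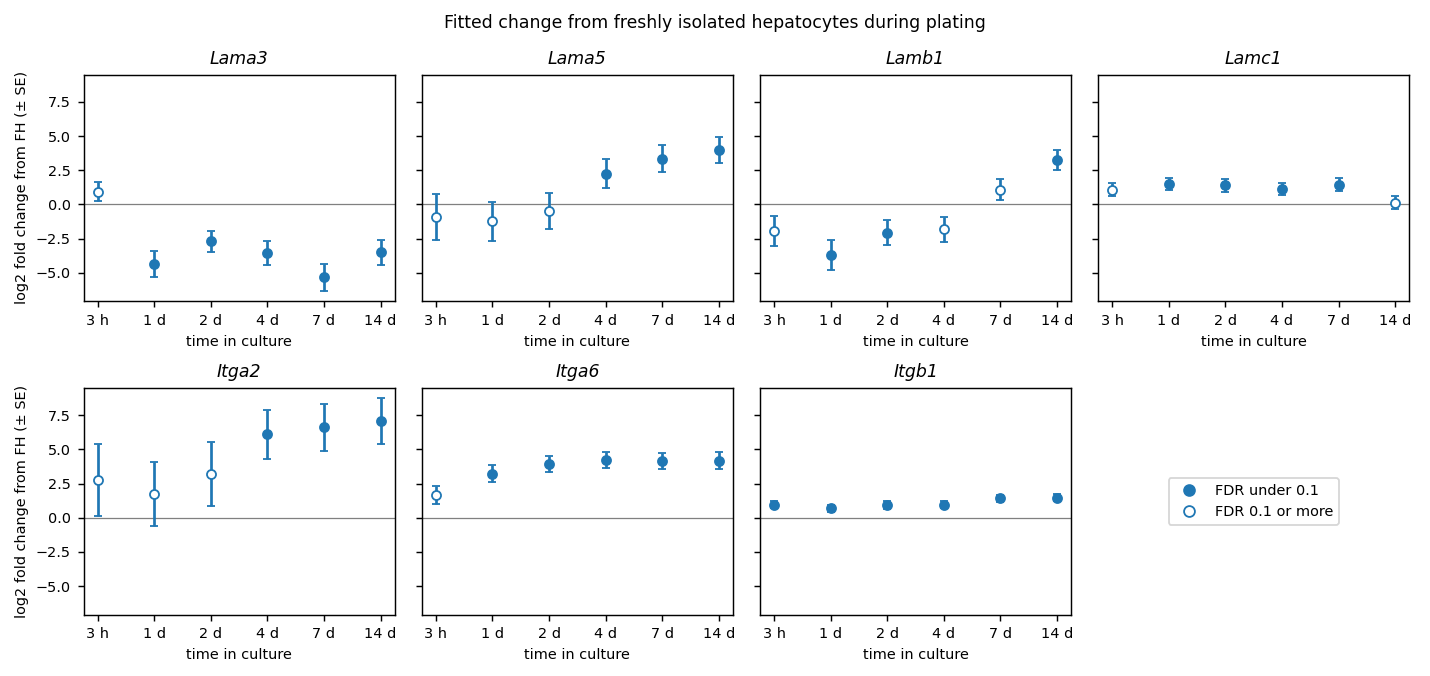
Log2 fold change from FH (y axis, ± SE) of the 7 tested genes at each time in monolayer culture (x axis, 3 libraries a time). Filled points have an adjusted p under 0.1 and open points do not. Lama3 lies below the line from 1 day on, Lamb1 crosses it between 4 and 7 days and ends at 3.24, and Itga6 levels off near 4.

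Lists of related genes were counted at 14 days, where 28.0% of all tested genes were higher and 27.6% lower. Of 5 other laminin receptors all were tested and 3 were higher, with a median log2 fold change of 2.99 against 0.04 for all genes: Itga3 (6.85, SE 0.58), the tetraspanin Cd151 (2.99) and the Lutheran laminin receptor Bcam (4.92). Itga3, the α subunit of another laminin receptor with Itgb1, was at 8.03 ± 6.31 CPM in FH and at 1051 ± 169 CPM at 14 days (SD, n = 3 each), where it was above Itgb1 in each library. Of 13 basement membrane genes 8 were tested, of which 7 were higher and 1 lower, led by Col4a1 (4.19, SE 0.43), Agrn (3.35) and Nid1 (4.27). Of 12 genes of the adhesion plaque 11 were tested, with 9 higher and 1 lower, and Src (8.02), Zyx (4.13) and Tln1 (2.22) had the smallest p. The hemidesmosome plakins Plec (1.29) and Dst (2.18) were both higher, whereas Col17a1, the hemidesmosome collagen, was at 0 in all 3 libraries. The lists were drawn up by what the genes are known to do, but with earlier results of these data known. The stellate and fibroblast marker sum at 14 days (41.2 to 207 CPM) overlaps that in FH, but its members went opposite ways: of 5 tested Col1a1 rose by 6.36 (adjusted p = 9.87e-05), from at most 1.09 CPM in FH to 12.6 to 74.0 CPM, and Dcn fell by 3.60 (adjusted p = 0.00114). The part of such cells in the matrix genes was not tested.

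The next comparison set the passaged dediHeps against FH. In dediHeps 6 of the 7 tested genes were higher than in FH and none was lower, against 22.4% of all genes higher and 22.7% lower. The genes that were higher were Lama5, Lamb1, Lamb3, Lamc1, Itga6 and Itgb4. Lama3 was not among those tested, because it had 0 counts in all 5 dediHep libraries and few in FH, and FH was at least 27.2-fold higher. Itga2, too, was not tested. Lama5 and Itgb4 had 2 counts each in FH and enough counts for the test only through the dediHeps. These genes could only be called higher, and the filter left Lama3, which was lower, out of the tally.

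Lama5 gave 88.1, 39.2, 42.9, 38.3 and 68.5 CPM in dediHeps against at most 1.30 CPM in FH. It rose by 5.89 on the log2 scale (SE 0.76, adjusted p = 0.000117), and the ratio of summed counts was 71.3 (interval 19.6 to 590). Lamb1 gave 36.7, 42.2, 24.4, 7.73 and 38.6 CPM, all above the FH libraries, and rose by 2.55 (SE 0.65, adjusted p = 0.00991). Lamc1 gave 193, 37.1, 115, 44.8 and 26.5 CPM, all above FH but spread over a wide range, and rose by 2.38 (SE 0.77, adjusted p = 0.03). Its call was lost without FH replicate 3 (2.04, adjusted p = 0.112).

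Lamb3 varied widely between the dediHep cultures, at 4.38, 22.9, 109, 25.6 and 11.1 CPM, and replicate 1 lies within the FH range. The log2 fold change was 2.51 (SE 0.97, adjusted p = 0.0631). It did not pass without dediHep replicate 3 (1.40, adjusted p = 0.12) or without any one of the FH libraries (adjusted p = 0.131 to 0.175). Replicate 3 also had the highest intestinal marker sum of the dediHeps, 686 CPM against 54.7 to 333 CPM in the others, and its part in the Lamb3 level was not tested. The Lamb3 share of Lamb3 and Lamb1 ran from 10.7% to 81.7% among these 5 cultures. Lama3, its α chain partner, was at 0 in all 5.

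Of the integrin subunits Itga6 gave 92.0, 59.0, 115, 47.2 and 29.9 CPM in dediHeps, all above FH, and rose by 4.47 (SE 0.86, adjusted p = 0.0018). Itgb4 gave 44.9, 5.59, 58.9, 13.4 and 8.68 CPM, also all above FH, and rose by 4.84 (SE 1.21, adjusted p = 0.00859). Thus Itgb4, barely counted during the first 14 days, made up 2.68 to 22.3% of the counts of Itgb4 and Itgb1 in dediHeps. Itgb1 gave 324, 203, 205, 160 and 129 CPM, with replicates 4 and 5 within the FH range. Its log2 fold change was 0.33 (SE 0.38, adjusted p = 0.535), and with library totals in place of TMM it was 1.22 (adjusted p = 0.0222), a shift like that of the median gene (0.88). Itga2 was at 4.38, 10.2, 0.617, 6.92 and 4.82 CPM, at least 4.42-fold above FH over the group.

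Of the other laminin receptors 3 of 5 tested were higher in dediHeps, Itga3 (5.19, SE 0.63), Bcam (3.46) and Cd151 (1.57). Among the other laminin chains Lamb2 rose by 6.81 (adjusted p = 1.6e-05), from 1.49 ± 0.611 CPM in FH (SD, n = 3) to 204 ± 102 CPM (SD, n = 5), so the β chain with the highest level in dediHeps was neither Lamb1 nor Lamb3. Basement membrane genes gave 5 higher and 1 lower of 8 tested, among them Agrn (3.55) and Col4a1 (2.96). Of all genes 22.4% were higher and 22.7% lower. Summed endothelial and fibroblast markers were, as given above, near 0 in these libraries.

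**Figure D2:**
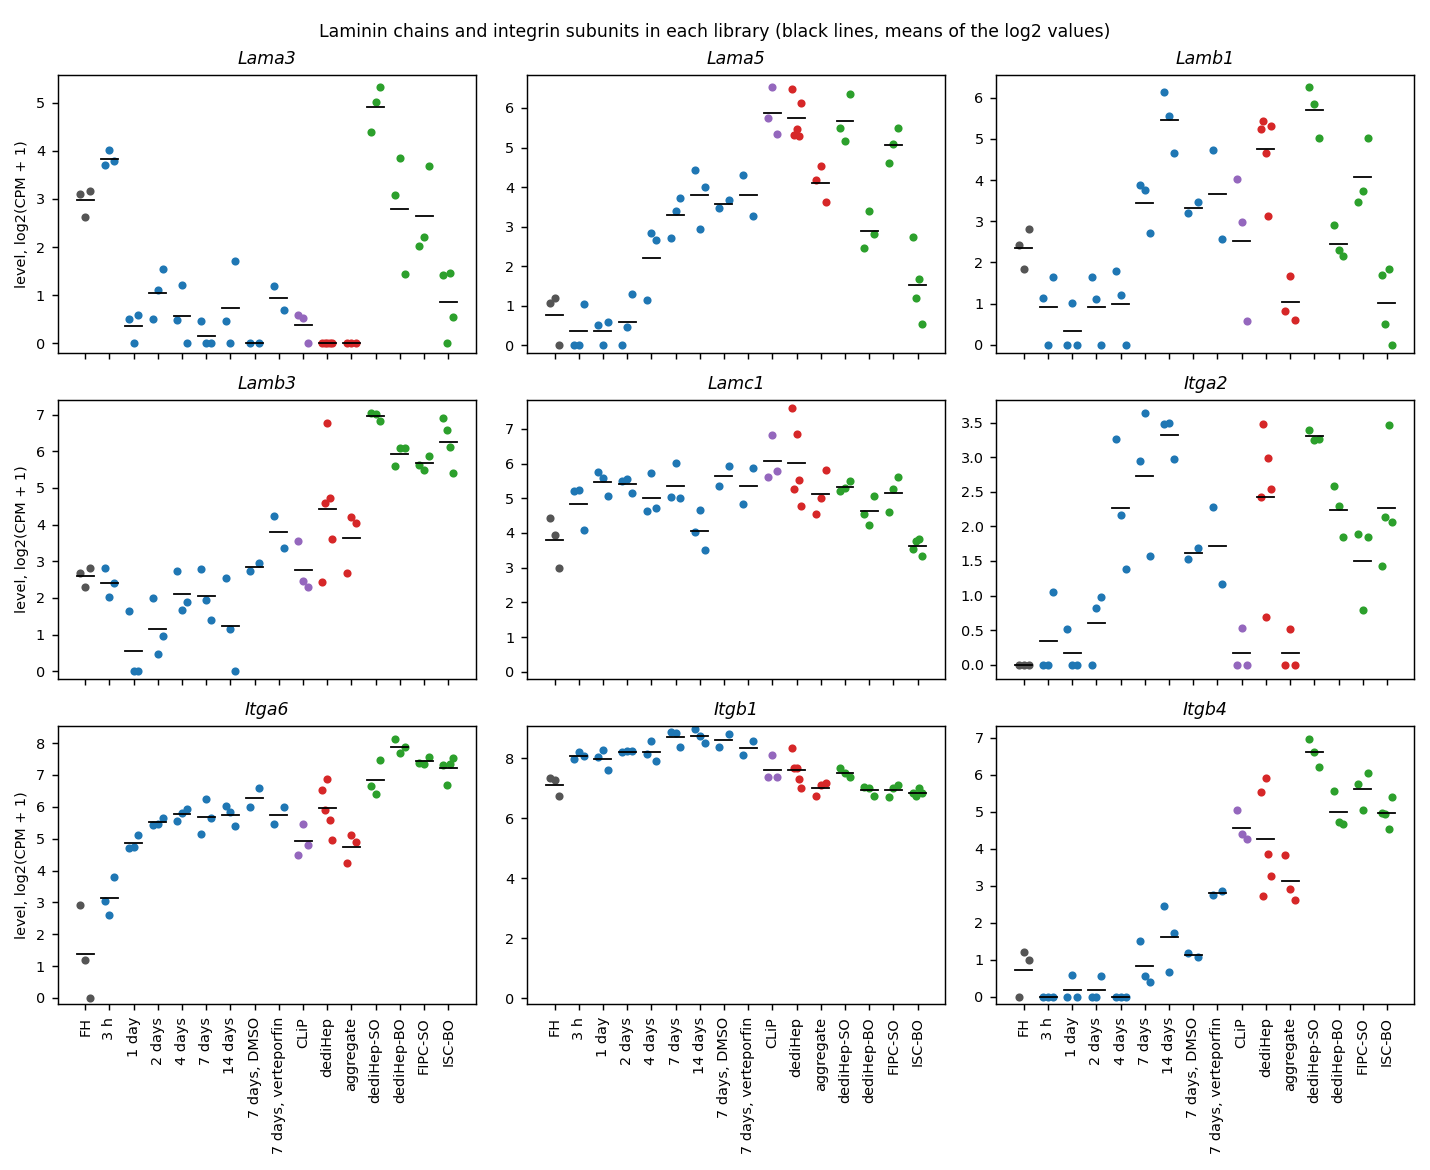
Level of each gene as log2(CPM + 1) on the y axis in every library, by condition on the x axis, with black lines for the means of these log values and a y range of its own for each gene. FH are grey, plated hepatocytes blue, CLiPs purple, dediHeps and aggregates red and organoids green. Lama3 lies at 0 in all dediHeps and aggregates and is highest in the dediHep-derived SOs, whereas the condition means of Itgb1 span the narrowest range on this scale.

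Aggregation, in which the same cells leave the collagen surface and are kept in another medium, was then compared with the dediHep monolayer. Of 8 tested genes 4 fell and none rose, against 12.2% of all genes lower and 12.2% higher. The genes were Lama5, Lamb1, Itga2 and Itga6. Lamb1 dropped from 7.73 to 42.2 CPM in the monolayers to 0.773, 2.17 and 0.513 CPM in the aggregates, with no overlap, and fell by 4.52 on the log2 scale (SE 0.74, adjusted p = 0.00412). Lama5 gave 17.0, 22.2 and 11.3 CPM, below all 5 dediHep libraries, and fell by 1.68 (SE 0.42, adjusted p = 0.0276).

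Itga2 had 1 count in the 3 aggregates together and fell by 4.47 (SE 1.17, adjusted p = 0.0311). It had enough counts for this test only through the dediHeps, so it could only be called lower. By summed counts the dediHeps were 27.3-fold higher (interval 4.71 to 1098). Itga6 gave 17.8, 33.5 and 28.7 CPM in the aggregates, overlapping dediHep replicate 5, and fell by 1.34 (SE 0.47, adjusted p = 0.0789). The calls of Lama5 and Itga2 were lost without aggregate replicate 1 or 3 (adjusted p = 0.101 and 0.119 for Lama5, 0.113 and 0.125 for Itga2), and that of Itga6 without any aggregate or without dediHep replicate 1, 2 or 3. The Lamb1 call stood in each of these. The other 4 tested genes were lower too in the fit without passing: Lamb3 −1.42 (adjusted p = 0.286), Lamc1 −1.19 (0.231), Itgb4 −1.67 (0.179) and Itgb1 −0.62 (0.216). Lama3 stayed at 0 in the 3 aggregates.

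Because Lamb1 fell and Lamb3 did not pass, the Lamb3 share of Lamb3 and Lamb1 was 87.5 to 96.8% in aggregates, above all 5 dediHep libraries, on 8 to 45 counts. Of the partners, 3 of 12 adhesion plaque genes were lower and none higher, against 12.2% of all genes lower and 12.2% higher. The lower ones were Bcar1 (−2.63), Lims1 (−2.40) and Tln1 (−0.98). Itga3 fell by 1.09 (adjusted p = 0.0849), and Agrn by 1.88 and Hspg2 by 3.29 among 8 tested basement membrane genes. The hepatocyte marker sum was 6834 to 10742 CPM in the aggregates against 718 to 4087 CPM in dediHeps.

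Against FH, the aggregates had enough counts for 4 of the 9 genes, of which 2 were higher, compared with 15.9% of all genes higher and 19.7% lower. Lama5 was higher by 4.19 (SE 0.77, adjusted p = 0.00224) and Itga6 by 3.14 (SE 0.78, adjusted p = 0.0121). Lamc1 (1.18, adjusted p = 0.119) and Itgb1 (−0.29, adjusted p = 0.582) did not pass, and the sign for Itgb1 turned to 0.37 with library totals. Lama5, with 2 counts in FH, could only be called higher. Of the genes not tested, Lama3 had 0 counts in the aggregates and 19 in FH, which was at least 13.1-fold higher. Itgb4 had 42 counts in the aggregates and 2 in FH (ratio 10.2, interval 2.65 to 86.9).

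The SOs differ from the dediHep monolayer in matrix, medium and form, and Lama3 was counted in the SOs alone. Lama3, with no count in any of the 5 dediHep libraries, gave 19.8, 31.1 and 38.9 CPM (63, 62 and 86 counts) in the dediHep-derived SOs. Since dediHeps were at 0, the fitted change of 9.16 (SE 0.75, adjusted p = 0.000492) is not a measured fold. By summed counts the SOs were at least 110-fold higher. Lama3 had enough counts for this test only through the SOs. It was the 1 of 9 tested genes to pass between SOs and dediHeps, where 7.93% of all genes were higher and 8.21% lower. No library outside the SOs reached their lowest Lama3 value, the next being 15.2 CPM at 3 h.

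Lamb3 and Itgb4 were also above all dediHep libraries in the SOs, without passing the test. Lamb3 gave 131, 129 and 113 CPM (log2 fold change 1.87, SE 0.74, adjusted p = 0.142). Itgb4 gave 124, 97.4 and 73.3 CPM (1.90, SE 0.67, adjusted p = 0.101). Without dediHep replicate 3, both passed (Lamb3 2.99, adjusted p = 0.00379, and Itgb4 2.42, adjusted p = 0.0403), and Itgb4 also without dediHep replicate 1 (2.19, adjusted p = 0.0545). By name, dediHep replicate 3 is the culture of SO replicate 2, which stayed in that fit. Within this culture Lamb3 was at 109 CPM in the monolayer and 129 CPM in the SOs, and Itgb4 at 58.9 and 97.4 CPM. The other 6 genes had an adjusted p of 0.29 or more, with log2 fold changes from −1.08 (Lamc1) to 0.88 (Lamb1).

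Against FH, 8 of 9 genes were higher in the SOs and none lower, with 26.4% of all genes higher and 26.3% lower. Itga2, Itgb4 and Lama5 had 0, 2 and 2 counts in FH and enough counts for this test only through the SOs. These genes could only be called higher, which limits what the tally shows. Itgb4 rose by 6.72 (SE 0.67, adjusted p = 1.74e-05, ratio of summed counts 137, interval 37.8 to 1132) and Lamb3 by 4.37 (SE 0.44, adjusted p = 1.91e-05). Lama5 rose by 5.84, Itga6 by 5.27, Lamb1 by 3.39, Lama3 by 1.89 (SE 0.49, adjusted p = 0.00921) and Lamc1 by 1.29 (adjusted p = 0.0508, lost without FH replicate 2 or 3). Itga2, at 9.45, 8.53 and 8.60 CPM, was at least 8.02-fold above FH. Itgb1 was the exception (0.17, SE 0.35, adjusted p = 0.723), and with library totals it was 1.06 (adjusted p = 0.0235). These comparisons share the FH libraries with the time course and the dediHep libraries with the aggregates.

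In the SOs Itgb4 made up 30.8 to 37.6% of the counts of Itgb4 and Itgb1, above every dediHep library, and Lama3 31.2 to 47.0% of the counts of Lama3 and Lama5. Bcam rose by 3.29 from dediHeps (SE 0.39, adjusted p = 0.000402), whereas the plakin Dst fell by 4.56 (adjusted p = 0.000739). Sparc, Nid1 and Ntn4 were lower among 9 tested basement membrane genes, of which none was higher (all genes, 8.21% lower and 7.93% higher). The stellate and fibroblast sum was at most 1.26 CPM and the endothelial sum at most 3.01 CPM in the SOs. The part of such cells in the Lama3 level was not tested. Alb, Serpina1c and Cyp2e1 were at 0 in the SOs.

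**Figure D3:**
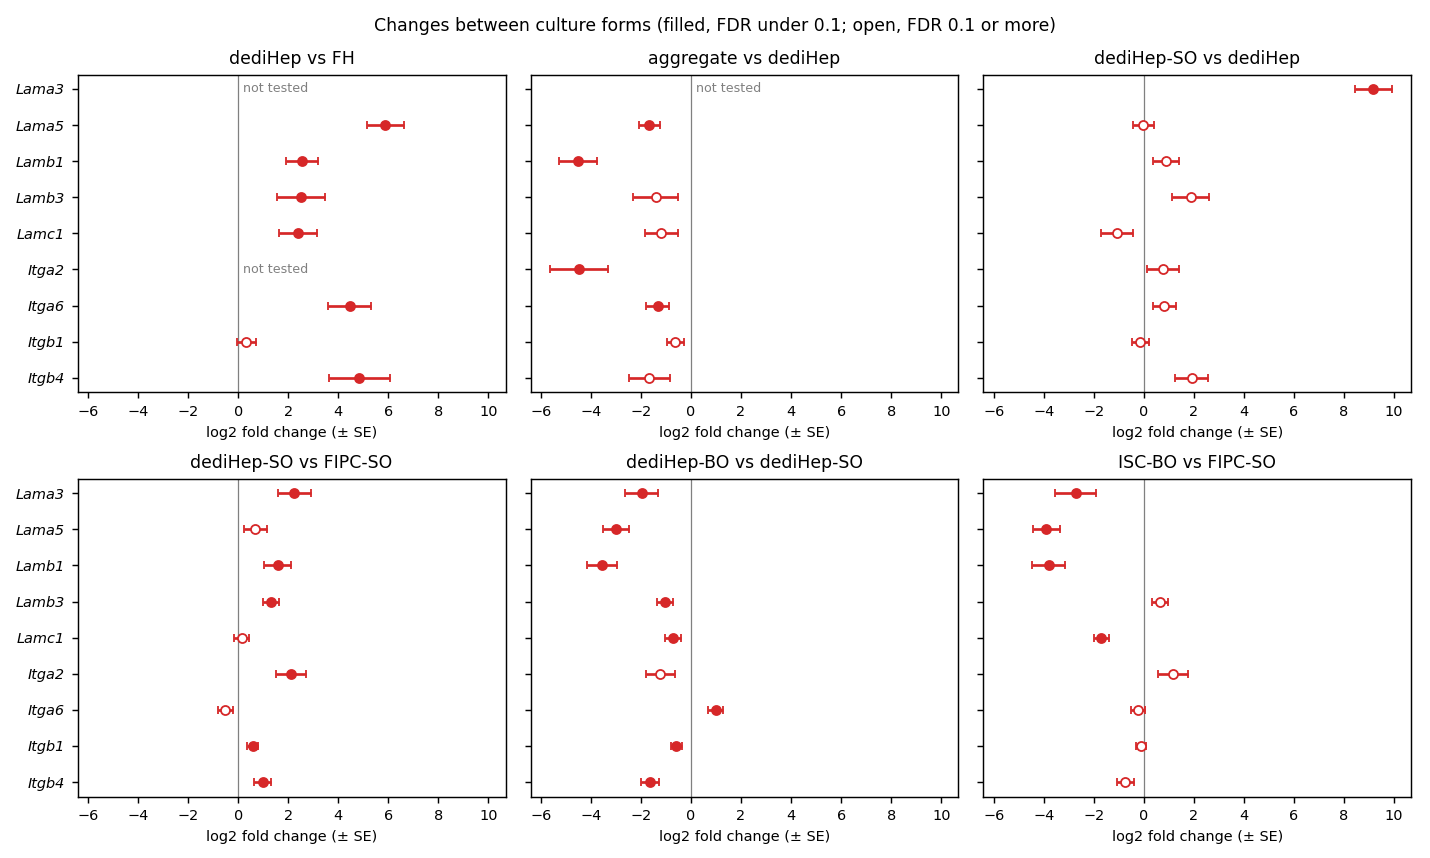
Log2 fold change (x axis, ± SE) of each gene in 6 comparisons between culture forms, filled where the adjusted p is under 0.1. Most laminin chains lie right of 0 for dediHeps against FH and left of 0 for aggregates against dediHeps and for both comparisons of budding with spherical organoids. Lama3 stands at 9.16 for SOs against dediHeps, a fitted value against 0 counts in dediHeps.

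CLiPs, the hepatocyte progenitors obtained with small molecules, were compared with dediHeps. Of 8 tested genes 1 was lower and none higher in CLiPs, with 2.84% of all genes higher and 1.85% lower. Itga2 had 2 counts in the 3 CLiP libraries together and fell by 4.39 (SE 1.12, adjusted p = 0.0729), and dediHeps were 20.9-fold higher by summed counts (interval 5.52 to 177). Here, too, Itga2 had enough counts for the test only through the dediHeps and could only be called lower. Its call was lost without dediHep replicate 2 (adjusted p = 0.148) or 5 (0.118) or CLiP replicate 1 (0.265) or 3 (0.173).

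Lama5 stood at 52.3, 90.8 and 39.5 CPM in CLiPs, of which replicate 2 lies just above the dediHep libraries and the others within their range (0.08, SE 0.42), and Itgb4 at 31.8, 19.9 and 18.0 CPM (−0.24, SE 0.74). Lamb1 gave 15.4, 6.93 and 0.488 CPM (−2.02, SE 0.83, adjusted p = 0.253) and Lamb3 10.8, 4.47 and 3.90 CPM (−2.49, SE 0.96, adjusted p = 0.226). These SEs are wide, so neither difference nor likeness is shown for these β chains. Lama3 was at 3 counts in the CLiPs together. Lama4, an α chain of vessel and mesenchymal basement membranes, was higher in CLiPs by 4.96 (adjusted p = 0.0315), at 10.4 ± 1.65 CPM (SD, n = 3) against 0.328 ± 0.734 CPM (SD, n = 5). The macrophage marker sum was 70.7 to 149 CPM in CLiPs and 1.45 to 10.5 CPM in dediHeps, with Ptprc, Adgre1, Clec4f and Cd5l at 0 in CLiPs. Nearly all of the CLiP sum was Csf1r, at 114 ± 41.7 CPM (SD, n = 3), with Cd68 at 4.61 ± 4.56 CPM. The sum thus rests on a single marker of the list.

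Verteporfin, compared with DMSO after a week, moved none of the 6 tested genes past the threshold in edgeR, with 1 at an unadjusted p under 0.05 and 0 passing in DESeq2. Of all genes 0.317% were higher and 0.0577% lower. The gene with the unadjusted p under 0.05 was Lamb3, at 18.0 and 9.33 CPM with verteporfin and 5.68 and 6.68 CPM with DMSO (log2 fold change 1.13, SE 0.49, adjusted p = 0.53). Itga6 was at 43.0 and 62.8 CPM with verteporfin and 63.1 and 94.6 CPM with DMSO (−0.58, SE 0.32, adjusted p = 0.621). Itgb4 was too low to be tested, though its 2 libraries with verteporfin (5.78 and 6.22 CPM) lie above those with DMSO (1.26 and 1.11 CPM).

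The organoids were then compared by origin and by form. Between dediHep-derived and FIPC-derived SOs, 6 of 9 genes were higher in the dediHep-derived ones and none lower, where 15.6% of all genes were higher and 14.2% lower. Lama3 gave 19.8, 31.1 and 38.9 CPM against 3.09, 3.62 and 12.0 CPM (log2 fold change 2.24, SE 0.66, adjusted p = 0.0253), with no overlap. Lamb3 gave 131, 129 and 113 CPM against 48.7, 44.1 and 57.8 CPM (1.31, SE 0.33, adjusted p = 0.0106), and Itga2 9.45, 8.53 and 8.60 CPM against 2.71, 0.723 and 2.58 CPM (2.12, SE 0.60, adjusted p = 0.0212), both again without overlap.

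Lamb1 (1.58, adjusted p = 0.0478), Itgb4 (0.98, adjusted p = 0.0565) and Itgb1 (0.59, adjusted p = 0.0653) were higher as well, each with a call that single libraries decided. The calls of Lamb1 and Itgb1 were lost without replicate 1 or 2 of either group, and that of Itgb4 without dediHep-derived replicate 1 or 2 or FIPC-derived replicate 2. FIPC-derived replicate 3, the library with the highest Lama3 and Lamb1 of its group (12.0 and 31.7 CPM), also had 487 CPM of stellate and fibroblast markers against 5.42 and 11.2 CPM in the others, and what part those cells had in its laminin levels was not tested. The Lama3 call was lost without FIPC-derived replicate 2 (adjusted p = 0.107). Lama5 (0.68, SE 0.47), Lamc1 (0.13, SE 0.31) and Itga6 (−0.52, SE 0.30) did not pass, and the sign for Lamc1 turned with library totals (−0.03).

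Lama3, Lama5, Lamb1 and Lamc1 were lower in budding than in spherical organoids of both origins. Of the 9 genes, 7 were lower and 1 higher in dediHep-derived BOs than in the SOs (20.5% and 19.1% of all genes), and 4 were lower and none higher in ISC-derived BOs than in FIPC-derived SOs (8.19% and 9.69%). The intestine-derived pair differs in age of the donor as well as in form. The BOs of dediHeps differ from the SOs in the Cdx2 virus as well, and in both pairs the medium changed with the form.

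Lama5 went from 43.8, 35.1 and 81.5 CPM in dediHep-derived SOs to 4.51, 9.51 and 6.03 CPM in the BOs (−2.996, SE 0.53, adjusted p = 0.000779). In the intestine-derived organoids it went from 23.6, 32.9 and 43.9 CPM to 5.62, 1.27, 2.18 and 0.456 CPM (−3.91, SE 0.54, adjusted p = 0.000169). Lamb1 went from 75.0, 56.2 and 31.2 CPM to 6.51, 3.89 and 3.45 CPM (−3.56, SE 0.62, adjusted p = 0.000644), and from 10.0, 12.3 and 31.7 CPM to 2.25, 0.423, 2.61 and 0 CPM (−3.81, SE 0.65, adjusted p = 0.000964). In none of these 4 pairs of groups did the libraries overlap. Lamc1 fell in the dediHep-derived (−0.72, adjusted p = 0.097, lost without any of 9 libraries) and the intestine-derived organoids (−1.70, SE 0.30, adjusted p = 0.00125). Lama3 fell in both too (−1.98, adjusted p = 0.0368, and −2.73, adjusted p = 0.0368), but without FIPC-derived replicate 3 the latter was −1.81 (adjusted p = 0.258), and the former was lost without dediHep-derived BO replicate 1 or 3 (adjusted p = 0.101 and 0.115).

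Lamb3, Itga2 and Itga6 passed the test of the interaction of form and origin (3 of 9 genes, 1 higher and 2 lower, with 9.24% of all genes higher and 9.09% lower). Lamb3 fell from 131, 129 and 113 CPM to 47.6, 67.4 and 67.2 CPM in the dediHep-derived organoids (−1.04, SE 0.33, adjusted p = 0.0287), while in the intestine-derived ones it went from 48.7, 44.1 and 57.8 CPM to 119, 95.1, 67.9 and 41.5 CPM (0.63, SE 0.31, adjusted p = 0.216). The difference of these changes was −1.67 (SE 0.45, adjusted p = 0.0307), and it passed with any single library left out but not with all 49 libraries in 1 fit (adjusted p = 0.241). The fall of Lamb3 within the dediHep-derived organoids was lost without BO replicate 1 (−0.88, adjusted p = 0.12). Itga6 rose with budding in the dediHep-derived organoids, from 98.6, 83.8 and 175 to 281, 204 and 232 CPM (0.98, SE 0.30, adjusted p = 0.0247, lost without SO replicate 1 at 0.105), and was at −0.23 in the intestine-derived ones (SE 0.28, adjusted p = 0.668). The interaction was 1.21 for Itga6 (SE 0.40, adjusted p = 0.0696) and −2.37 for Itga2 (SE 0.83, adjusted p = 0.0803), and these were lost without any of 7 and of 8 libraries and with all 49 libraries in 1 fit (adjusted p = 0.207 and 0.166). For Itga2 the change with budding passed in neither origin on its own (−1.22, SE 0.58, adjusted p = 0.12 in the dediHep-derived organoids). Its levels in FIPC-derived SOs, given above, were low, where 3 counts are 0.969 to 1.16 CPM.

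Itgb4 fell with budding in the dediHep-derived organoids, from 124, 97.4 and 73.3 to 46.1, 25.5 and 24.6 CPM (−1.64, SE 0.36, adjusted p = 0.00362). It was at 30.4, 29.6, 22.2 and 41.0 CPM in the ISC-derived BOs, where the change from FIPC-derived SOs did not pass. Itgb1 fell by 0.59 in the dediHep-derived organoids (SE 0.22, adjusted p = 0.0522, lost without SO replicate 1 or any BO library). The interaction did not pass for Itgb4 (−0.89, adjusted p = 0.222) or Itgb1 (−0.46, adjusted p = 0.303).

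Between the BOs, 2 of 9 genes were higher in the dediHep-derived ones and none lower, where 4.82% of all genes were higher and 4.00% lower. Lamc1 gave 22.5, 17.7 and 32.8 CPM against 10.7, 12.7, 13.1 and 9.12 CPM without overlap (1.12, SE 0.31, adjusted p = 0.0469). Lama3 gave 7.51, 13.4 and 1.72 CPM against 1.69, 0, 1.74 and 0.456 CPM, where replicate 3 overlaps (2.98, SE 0.82, adjusted p = 0.0479). The Lama3 call was lost without dediHep-derived BO replicate 1 (adjusted p = 0.117) or 2 (0.255) or ISC-derived replicate 2 (0.116), and the Lamc1 call without dediHep-derived replicate 1 or 3 or ISC-derived replicate 1. Replicates 1 and 2 of the dediHep-derived BOs also held 288 and 287 CPM of stellate and fibroblast markers, against 2.16 CPM in replicate 3 and at most 0.435 CPM in the ISC-derived BOs. The part of that in Lama3 was not tested.

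The other basement membrane genes were counted in the same comparisons of the organoids. In the dediHep-derived BOs 5 of 9 tested were lower and 2 higher than in the SOs (all genes, 20.5% lower and 19.1% higher). Col4a2 (−5.41), Col18a1 (−4.97) and Col4a1 (−3.80) had the smallest p. From FIPC-derived SOs to ISC-derived BOs 6 of 9 were lower and 1 higher (all genes, 8.19% lower and 9.69% higher). The median log2 fold change was −4.63 against −0.03 for all genes, and Col4a1 (−7.996) and Col4a2 (−7.43) were among the lower. In that comparison Col1a1, a fibroblast collagen, was at 190 CPM in FIPC-derived replicate 3, at 2.53 and 3.48 CPM in the others and at 0 in the ISC-derived BOs, and its part in the matrix genes was not tested. Of the laminin receptors, Bcam (−5.03), Itga3 (−1.92) and Cd151 (−1.62) fell with budding of dediHep-derived organoids. Between the BOs 6 of 9 basement membrane genes were higher in the dediHep-derived ones (all genes, 4.82%), among them Col4a1 (5.06) and Nid1 (6.32). The fibroblast markers given above were high in 2 of the 3 dediHep-derived BO libraries.

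**Figure D4:**
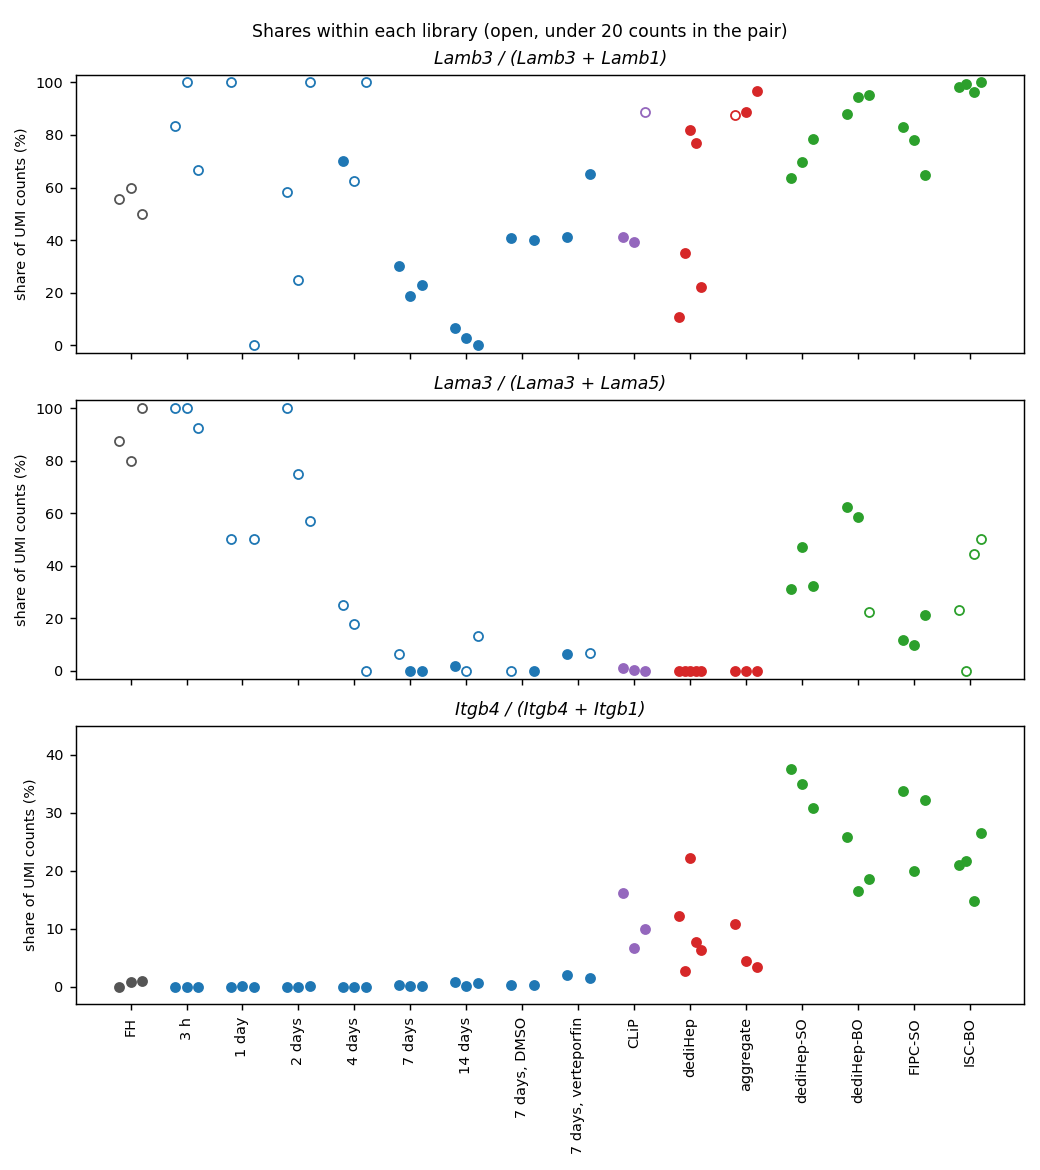
Share of UMI counts (y axis, percent) taken by Lamb3 of Lamb3 plus Lamb1, by Lama3 of Lama3 plus Lama5 and by Itgb4 of Itgb4 plus Itgb1, in each library by condition (x axis). Open points rest on under 20 counts. The Lamb3 share is 0 to 6.57% at 14 days and 96.3 to 100% in ISC-derived BOs, and the Itgb4 share is 30.8 to 37.6% in the dediHep-derived SOs.

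The shares of the paired genes differed between the culture forms. Lamb3 made up 63.6 to 78.3% of the counts of Lamb3 and Lamb1 in dediHep-derived SOs, 64.6 to 82.9% in FIPC-derived SOs, 88.0 to 95.1% in dediHep-derived BOs and 96.3 to 100% in ISC-derived BOs. So the BOs lie above the SOs in this share for both origins without overlap. Itgb4 made up 16.5 to 25.8% of the counts of Itgb4 and Itgb1 in dediHep-derived BOs, 20.0 to 33.7% in FIPC-derived SOs, 14.8 to 26.5% in ISC-derived BOs and 6.72 to 16.2% in CLiPs. Before dediHeps it never exceeded 2.04%, the higher of the verteporfin libraries. These shares are descriptions and were not tested.

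Ordered by mean level, few neighbouring conditions were apart by more than the spread of their libraries. For Lamb1, Lamb3, Lamc1 and Itga2 no pair of neighbours among the 15 was without overlap. For Lama3 the dediHep-derived SOs (30.0 ± 9.59 CPM, SD, n = 3) stood clear of the next condition, 3 h (13.4 ± 1.70 CPM), and the FIPC-derived SOs clear of 2 days. For Itga6 the dediHep-derived BOs (239 ± 39.1 CPM) stood clear of the FIPC-derived SOs (171 ± 15.2 CPM). For Itgb4 the dediHep-derived SOs (98.4 ± 25.6 CPM) stood clear of the FIPC-derived SOs (49.9 ± 16.8 CPM), and the CLiPs (23.2 ± 7.45 CPM) clear of the aggregates. Lama5 was highest in CLiPs (60.9 ± 26.7 CPM), dediHeps (55.4 ± 22.1 CPM) and dediHep-derived SOs (53.5 ± 24.6 CPM), which did not separate, and the first gap came below the FIPC-derived SOs. Itgb1 was highest at 14 days (431 ± 70.6 CPM) and lowest in ISC-derived BOs (115 ± 8.74 CPM).

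Over the 16 condition means of log2(CPM + 1), Lamb3 and Itgb4 followed each other most closely among the 9 genes (Pearson r = 0.900), followed by Lama5 and Lamb1 (0.762) and Lama5 and Itgb4 (0.724). Itgb1 ran the other way from Lamb3 (−0.675) and Itgb4 (−0.635). Among 14286 other genes, the closest to Lamb3 were Sorl1 (0.967) and Plek2 (0.952), to Itgb4 Rab27b (0.978) and Smtnl2 (0.973), and to Itga6 Rcc2 and Snrnp40 (0.970 each). Lama5 was closest to Glis2 (0.952) and Arhgef17 (0.950), Lamb1 to Nxpe3 (0.890) and Hs6st2 (0.882), and Lama3 to Il1a (0.888) and Rdh10 (0.877). Lamc1 had the weakest best match, Cdc42ep1 (0.839) and Osmr (0.827), with Itga2 closest to Spry2 (0.885) and Ier5l (0.850) and Itgb1 to Gm19589 (0.935) and Litaf (0.929). The conditions share cultures and a scaling, and these values describe likeness over 16 points.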

How the data were processed

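Libraries were made by CEL-Seq2, a 3′ method in which each molecule carries a unique molecular identifier (UMI) of 6 bases. The authors deposited 1 table of raw UMI counts per Ensembl gene for the 49 libraries, without normalization. The submitters' processing notes name bcl2fastq 2.20, Bowtie2 2.3.1, HTSeq 0.6.0 and GRCm38. UMIs of this length cap a count at 4096, and the highest count of these 9 genes was 1339. Of 46078 identifiers 45143 were matched to a symbol, and 0.129% of the counts lay in unmatched ones.

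Here the counts were tested with edgeR 4.0.16 in R 4.3.3 (TMM, filterByExpr with a minimum count of 10 and a minimum total of 15, quasi-likelihood F-test, Benjamini-Hochberg over all genes tested). The threshold was an adjusted p of 0.1. An absolute log2 fold change over 2, which the study also required, was an alternative. The time course and the organoids were each 1 fit and the other comparisons used the libraries of both groups. SEs are the log2 fold change divided by the square root of F. Against a group at 0, folds are bounds from 3 counts over the group, and intervals are exact binomial 95% intervals that cover counting error only. Any of the 9 genes could be named in every comparison, but not all of them are named in each. Of the lists of related genes, the 3 with the smallest p in a comparison could be named, and Itga3 anywhere. A result on 1 other gene that the rule allowed is not reported here. The genes and lists were chosen with earlier results of these data known. Nothing in the sources used here says which replicates came from separate mice, so p values measure the spread between these samples. Counts of 54 pairs of replicates differed by 5.62 to 68.0 times the sampling variance, so no pair was a copy. The procedure was tested on simulated counts.

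Aggregates correlated with the dediHep culture they came from (r = 0.181 to 0.358 of deviations from the group means, all 3 pairs). SOs did not correlate with their dediHep culture (−0.498 to 0.0451). Alternatives were other normalizations, no filter, DESeq2 1.42.0, a correction for UMI saturation, a replicate block, other sets of libraries and leaving out each library.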

Additional observations from a re-analysis of the deposited data

Results flagged for a closer look

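Lamb3 in dediHep replicate 3, at 109 CPM, stood far from the other dediHep libraries: its gap to the next, divided by the range of the 5 libraries, was 0.797 against a critical value of 0.71. Chance alone flags about 1 in 20 such groups. All 9 genes were screened at both ends in dediHeps and in ISC-derived BOs, and no other value was flagged. This library also held the highest Krt19 (512 CPM against 84.9 to 128 CPM) and Cdx2 (122 CPM against 2.19 to 70.7 CPM) of the dediHeps, and the part of this in its Lamb3 level was not tested.

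The change from spherical to budding organoids differed between the dediHep-derived and the intestine-derived organoids for 3 genes, by the interaction term in edgeR. It was −1.67 for Lamb3 (adjusted p = 0.0307), −2.37 for Itga2 (adjusted p = 0.0803) and 1.21 for Itga6 (adjusted p = 0.0696), each on the log2 scale. With all 49 libraries in 1 fit none of these passed.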

How the results depend on the processing

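Of the 74 calls of these genes, 45 were lost under no alternative except the fold threshold and 27 were lost when 1 library was left out. No called gene changed direction under any alternative run. Over all alternatives, libraries left out included, 2708 values for single genes kept their direction and their side of the threshold, 153 no longer passed, 53 newly passed and 40 changed sign. Depth limits what can be said of Lama3, Itga2 and Itgb4 in FH, which had 19, 0 and 2 counts over the 3 libraries.

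With library totals in place of TMM, the share of higher genes among all genes past the test went from 44.4 to 73.4% at 1 day, 47.9 to 76.8% at 2 days, 50 to 78.8% at 4 days, 52.2 to 79.0% at 7 days and 50.4 to 72.1% at 14 days. It went from 49.6 to 78.6% for dediHeps, 44.7 to 75.7% for aggregates and 50.1 to 75.8% for SOs against FH, from 50 to 32.2% for aggregates against dediHeps, from 52.3 to 41.1% for dediHep-derived against FIPC-derived SOs, from 54.2 to 39.2% for ISC-derived BOs against FIPC-derived SOs, and from 50.4 to 65.5% for the interaction.

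The count of genes past the test among the 9 moved by more than 1.5 times as follows, and the cause was not tested. At 3 h (1) it was 0 without the filter, 2 with DESeq2, 0 with the fold threshold, 2 with the replicate block and 0 to 3 with 1 library left out. At 1 day (5) it was 3 with the fold threshold. The fold threshold moved it by 1.5 times or less at 4 days (6 to 4), 7 days (6 to 4) and 14 days (6 to 5), for ISC-derived BOs against FIPC-derived SOs (4 to 3) and for SOs against FH (8 to 6). At 2 days (5) it was 3 with the fold threshold and 3 to 6 with 1 library left out. For dediHep-derived against FIPC-derived SOs (6) it was 2 with the fold threshold, 2 with all 49 libraries in 1 fit and 2 to 7 with 1 library left out. Between the BOs (2) it was 4 without the filter, 4 with DESeq2, 1 with the fold threshold, 1 with only the libraries of both groups, 1 with all 49 libraries and 0 to 4 with 1 library left out. For dediHep-derived BOs against SOs (8) it was 2 with the fold threshold and 4 to 8 with 1 library left out. For the interaction (3) it was 1 with the fold threshold, 0 with all 49 libraries and 1 to 4 with 1 library left out. For aggregates against dediHeps (4) it was 2 with the fold threshold, 8 with all 49 libraries and 1 to 4 with 1 library left out, and against FH (2) it was 5 without the filter, 5 with all 49 libraries and 2 to 4 with 1 library left out. For SOs against dediHeps (1) it was 2 with RLE scaling, 3 without the filter, 2 with DESeq2, 2 with UMI saturation corrected, 3 with all 49 libraries and 1 to 3 with 1 library left out. For CLiPs (1) it was 2 with DESeq2, 0 with the replicate block, 4 with all 49 libraries and 0 to 1 with 1 library left out.

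Values that changed sign belonged to genes that had not passed. Itga2 at 1 day was −0.46 with DESeq2, Lama5 at 2 days 0.24 with library totals, Lamc1 between the SOs −0.035 and Itgb1 between aggregates and FH 0.37 with library totals, and Lama5 between SOs and dediHeps 0.0050 without the filter. With 1 library left out, the log2 fold change ran from −1.74 to 0.076 for Lama5 at 2 days and from −0.21 to 0.56 for Lamc1 at 14 days. Between the SOs it ran from −0.10 to 0.40 for Lamc1, and between the BOs from −0.50 to 0.47 for Itga2 and from −0.27 to 0.26 for Itgb4. For the interaction it ran from −0.17 to 1.26 for Lama3 and from −0.47 to 0.89 for Lamb1. Between SOs and dediHeps it ran from −0.24 to 0.12 for Itgb1 and from −0.47 to 0.24 for Lama5, and between SOs and FH from −0.0075 to 0.32 for Itgb1. For CLiPs it ran from −0.35 to 0.18 for Itgb1, −0.55 to 0.28 for Itgb4, −0.30 to 0.35 for Lama5 and −0.77 to 0.31 for Lamc1. For verteporfin it ran from −0.35 to 0.79 for Lama5, −0.90 to 1.51 for Lamb1 and −0.83 to 0.18 for Lamc1.

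The replicate block changed no call of these genes between aggregates or SOs and dediHeps, where cultures are shared, although over all genes the count for SOs against dediHeps went from 1851 to 1028. Elsewhere the libraries share only a number, and there the block brought Lamc1 at 3 h (adjusted p = 0.0822), Lamb1 at 4 days (0.0653), Itga6 between the BOs (0.0956) and Lamb3 between ISC-derived BOs and FIPC-derived SOs (0.0968) under the threshold. It took Lama5 at 4 days (0.105), Itgb1 between the SOs (0.113), Lama3 between the BOs (0.105) and between ISC-derived BOs and FIPC-derived SOs (0.13), Lamc1 between SOs and FH (0.11) and Itga2 in CLiPs (0.124) over it. The interaction for Lamb1 was −0.19 with the block. The verteporfin and DMSO libraries of the same number deviated together (r = 0.436, 2 pairs).

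The count of all genes past the test, over 1 library left out and the other settings, ran from 860 to 3657 at 3 h (2301), 2170 to 6331 at 1 day (4962), 2649 to 7393 at 2 days (5517), 2958 to 8024 at 4 days (5843), 3225 to 8501 at 7 days (6102) and 3668 to 7853 at 14 days (6921). It ran from 2901 to 7543 for dediHeps (5089), 1580 to 5323 for aggregates (3403) and 3140 to 7878 for SOs (5668) against FH, and from 1071 to 4784 for aggregates (2754), 927 to 3750 for SOs (1851) and 109 to 2820 for CLiPs (543) against dediHeps. It ran from 1258 to 5093 between the SOs (3683), 486 to 2093 between the BOs (1092), 1576 to 6502 for dediHep-derived BOs against SOs (4898), 946 to 2816 for ISC-derived BOs against FIPC-derived SOs (2214), 1046 to 4659 for the interaction (2269) and 0 to 882 for verteporfin (39).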
